A study of Mus musculus with 16 samples.

Results

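The 500 widest regions of histone H3 dimethylated at lysine 4 (H3K4me2) in mouse medullary thymic epithelial cells (mTEC) are described here. They were chosen by rank of width among the 29470 merged peaks outside the mitochondrial genome, end minus start, with ties in the order of the table. They make up 1.70% of these peaks and 6.61% of the bases the peaks cover, and all 500 passed the filter on low values used for testing. Because the width of a merged peak comes from the peaks of the same libraries, width and overall level are given as descriptions, with no test.

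The study sorted mTEC from the thymus of C57BL/6 mice and measured H3K4me2 by a high-throughput chromatin immunoprecipitation derived from iChIP, with a monoclonal antibody. All 4 populations were gated as CD45-negative and Epcam-positive. The further gates were low MHC class II and Itgb4 for mTEC-I, high MHC class II for mTEC-II, Ly6D for mTEC-III, and low MHC class II without Itgb4 but with L1cam for mTEC-IV. Each population had 2 libraries, and nothing in the labels says whether these came from separate mice, so the spread behind each p-value is that between 2 libraries and may be technical. A further 8 samples of whole-cell extract are not analysed here.

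H3K4me2 marks promoters and enhancers, and around active start sites it flanks the nucleosomes that carry trimethylated lysine 4. Most promoters carry the mark over a short stretch, while wide domains are known from genes of cell identity such as transcription factors, where the mark runs into the gene body and over nearby enhancers. mTEC display antigens of peripheral tissues to developing T cells, and they include immature cells, cells that express Aire, cornifying cells and thymic tuft cells, which resemble the chemosensory tuft cells of gut and airway.

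Promoter sequences are shown for 6 domains that span the range of patterns described here, as the 150 bases before the annotated start site. Bahcc1 had the highest level per kb of width, Metrnl and Skint3 had their highest level in mTEC-III, Icam1 its lowest in mTEC-IV, and Sh2d7 and Trpm5 were listed in mTEC-IV alone. Sequences are from RefSeq on GRCm38.p6, are written 5′ to 3′ on the strand of the gene, and carry each CpG in capitals. The windows lie at chr11:120232797-120232946 (plus strand), chr11:121702277-121702426 (plus), chr4:112232095-112232244 (plus), chr9:21015790-21015939 (plus), chr9:54533973-54534122 (plus) and chr7:143094643-143094792 (minus).
Bahcc1: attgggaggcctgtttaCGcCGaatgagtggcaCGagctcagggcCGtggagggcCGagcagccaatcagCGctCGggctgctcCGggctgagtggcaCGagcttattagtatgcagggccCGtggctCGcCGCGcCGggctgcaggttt
Metrnl: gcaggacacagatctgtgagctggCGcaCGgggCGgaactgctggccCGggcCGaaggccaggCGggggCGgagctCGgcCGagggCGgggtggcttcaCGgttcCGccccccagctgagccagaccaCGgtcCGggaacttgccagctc
Skint3: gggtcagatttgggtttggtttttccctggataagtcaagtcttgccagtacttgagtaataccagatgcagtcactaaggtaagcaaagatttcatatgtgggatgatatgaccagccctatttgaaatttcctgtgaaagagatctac
Icam1: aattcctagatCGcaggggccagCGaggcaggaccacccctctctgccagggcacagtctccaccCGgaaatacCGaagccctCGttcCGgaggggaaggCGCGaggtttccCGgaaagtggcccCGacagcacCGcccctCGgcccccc
Sh2d7: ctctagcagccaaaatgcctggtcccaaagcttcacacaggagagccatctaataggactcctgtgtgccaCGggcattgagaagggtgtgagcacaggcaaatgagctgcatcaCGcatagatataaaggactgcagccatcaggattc
Trpm5: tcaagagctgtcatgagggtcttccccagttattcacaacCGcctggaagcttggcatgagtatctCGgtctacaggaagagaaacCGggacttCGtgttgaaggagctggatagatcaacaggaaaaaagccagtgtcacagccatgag
The 150 bases held 14 CpG at Bahcc1, 14 at Metrnl, 0 at Skint3, 12 at Icam1, 2 at Sh2d7 and 4 at Trpm5. No CpG comparison over the whole set is given, since 322 of the 434 genes with a start site inside a domain, 74.2%, had a window in the sequence table and at least 80% were needed. A further 3 domains held the annotated start of a microRNA known from epithelia or from growth control, whose mature sequences follow with the seed, bases 2 to 8, in capitals.
miR-21a-5p: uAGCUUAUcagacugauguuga
miR-203-3p: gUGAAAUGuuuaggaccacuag
miR-200b-3p: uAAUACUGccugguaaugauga
These seeds differ from each other. The miRNAs lie on GRCm38.p6 at chr11:86584120-86584141, chr12:112130927-112130948 and chr4:156055685-156055706.

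Library totals ranged from 1702103.5 to 15412132.5 tags, with 31.9% to 35.4% of tags in merged peaks. The domains took 2.30% to 2.66% of all tags and 7.14% to 7.51% of the tags in peaks. The shallowest library was mTEC-I replicate 2, in which 3 tags correspond to a level of 17.6. Ly6d followed its gate, at 315 and 351 in mTEC-III against 69.2 to 114 in the other 6 libraries, as did L1cam, at 181 and 200.1 in mTEC-IV against 42.9 to 82.3. Itgb4 had 330.4 and 285 in mTEC-I against 216 to 242 elsewhere. H2-Aa, of MHC class II, did not follow the gates between mTEC-I, sorted as low, at 456 and 432, and mTEC-II, sorted as high, at 406 and 398, and was lowest in mTEC-IV at 241 and 242. Ptprc, which encodes CD45, had 269 and 265 in mTEC-IV against 30.03 to 48.9 elsewhere. Aire and Ccl21a, which mark mTEC subsets, were nearest to no peak. Of these gate genes and mTEC or tuft markers, H2-Ab1, Pou2f3, Trpm5 and Dclk1 were each nearest to 1 of the domains. In bulk sorted cells, fewer marked cells and less mark per cell cannot be told apart.

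The widths ran from 7837 to 25771 bp with a median of 9366.5 bp, against a median of 2140 bp over all peaks. There were 196 domains over 10 kb, 31 over 15 kb and 4 over 20 kb. The domains just inside the limit lay at Zfp362 (7840 bp), Mir1932 (7838 bp) and Phf21a (7837 bp), and the peaks just outside at Pkp1 (7836 bp), Klf6 (7836 bp) and Ap3m2 (7831 bp). Chromosome 11 held the most, 52 domains or 2.42% of its peaks. Chromosome X held 1, over Kdm6a, which encodes a histone H3 lysine 27 demethylase, or 0.181% of its peaks. The median gap from a domain to the next was 831780 bp, and 46 domains lay within 50 kb of another.

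Most of the domains ran over a gene start into the first part of the gene. An annotated start site lay inside 437 of 500 domains, 87.4% (95% Wilson interval 84.2% to 90.03%, counting error only), against 84.2% of the next 500 peaks by width and 44.8% of all peaks. The centre of the domain was downstream of the nearest start in 382 domains, 76.4%, against 64.4% of all peaks. It fell in intron 1 of a transcript in 230 domains, 46.0%, against 27.6% of all peaks. The annotation names the element at the centre of a peak, so it calls 56 domains, 11.2%, promoters, 318 intronic and 53, or 10.6%, intergenic, where all peaks were 26.5% intergenic. A CpG island was named at the centre of 14 domains, 2.80%, against 6.92% of all peaks. A wide region is likelier to hold a start site by its size alone, and these shares carry no test.

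The domains were assigned to 482 different nearest genes, of 15739 genes nearest to any peak. The nearest gene is not always the gene the domain lies in: 35 domains had their centre in a transcript of another gene. The clearest case was the domain assigned to Mir32, which lies in intron 9 of NM_175518, the transcript of Tmem245.

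The authors' peak lists, 1 per population with replicates combined, covered the domains to very different extents. The list of mTEC-I holds 7036 peaks, and covered a median of 31.2% of a domain's width. The lists of mTEC-II (23949 peaks), mTEC-III (19321) and mTEC-IV (22757) covered medians of 85.5%, 77.1% and 70.1%. At least 90% of the width was covered in 4 domains by the mTEC-I list, in 199 by mTEC-II, in 145 by mTEC-III and in 118 by mTEC-IV. The medians fell to 20.9%, 51.4%, 35.3% and 47.1% when only listed peaks at or above the median fold of their list were used. Among peaks of a width of 7837 bp or more, the mTEC-I list held 10, mTEC-II 203, mTEC-III 155 and mTEC-IV 135. Depth differed between populations too, with both mTEC-II libraries the deepest and mTEC-I replicate 2 the shallowest, and its part in the cover was not tested.

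**Figure D1:**
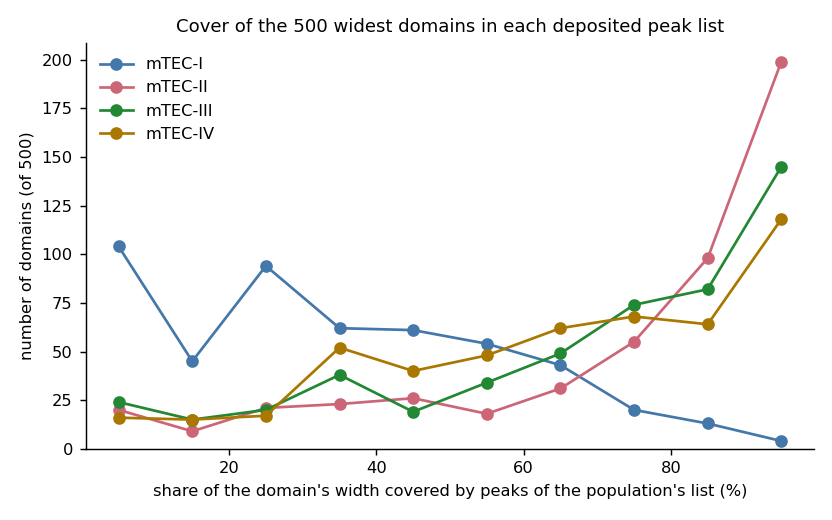
Number of domains (vertical axis) by the share of their width that the peaks of each population's deposited list cover, in bins of 10 percentage points; each line is 1 population. The lines of mTEC-II, mTEC-III and mTEC-IV peak at 90% cover or more, with 199, 145 and 118 domains, where mTEC-I has 4.

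A merged domain could join several listed peaks. In 153 domains the merged width equalled that of 1 listed peak, and in 273 domains at least 1 population's list had 2 or more peaks inside. The widest listed peak in a domain came from mTEC-II in 231 domains, mTEC-III in 140, mTEC-IV in 125 and mTEC-I in 4. A peak of all 4 lists was present in 392 domains, 78.4%, against 22.9% of all peaks, and 70 domains lacked a listed peak in mTEC-I only. The 18 domains listed in 1 population comprised 15 of mTEC-IV, 2 of mTEC-III (Spink5 and Slc5a9) and 1 of mTEC-II (Myo3b). For these 18 the choice fixed the direction of any difference. Their own values are given with no test, and the counts of limma calls that include them are repeated without them.

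Levels are tags per 10000000 of a library, as deposited, over the whole domain. The median over the 500 domains was 472 (range 120 to 1462), against 79.9 over all peaks. Per kb of width the domains were no denser than the next 500 peaks: the median was 48.8 per kb, against 49.1 per kb for those and 37.6 per kb for all peaks. The Spearman correlation of width with level was 0.46 over the 500 domains and 0.88 over all 29470 peaks, which share the libraries and whose level sums over the width. Every domain had signal in every library, and the lowest single value was 12.3, at the Ppp3ca domain in mTEC-II replicate 1.

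More of the domains differed between the populations than peaks in general. The limma F test over the 4 populations, with Benjamini-Hochberg adjustment over all 29469 tested peaks, called 415 of 500 domains, 83.0%, against 58.2% of all tested peaks. The next 500 peaks by width were called in 76.4% of cases, the 4000 after those in 57.6% and the remaining peaks in 57.4%, with median levels of 342.7, 235.6 and 60.4. A higher level carries a smaller counting error, and its part in the share called was not tested. The differences were small in most domains. On the log2 scale the median range between population means was 0.60, against 0.52 in the next 500 peaks and 0.43 in the 4000 after those. The remaining peaks, of the lowest median level, had 0.92. The highest population mean of a domain was a median of 1.52 times the lowest, against 1.74 times over all peaks. It was over 2-fold in 138 domains, over 3-fold in 79, over 5-fold in 33 and over 10-fold in 20, or 4.0% against 8.98% of all peaks.

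Against the mean of the other 3 populations, 155 domains were higher and 143 lower in mTEC-IV, 31.0% and 28.6%, where all tested peaks gave 23.5% and 14.3%. In mTEC-III 138 were higher and 110 lower, 27.6% and 22%, against 11.3% and 14.2%. In mTEC-I 123 were higher and 165 lower, 24.6% and 33.0%, against 14.7% and 23.1%. In mTEC-II 70 were higher and 158 lower, 14.0% and 31.6%, against 10.2% and 7.23%. The 18 domains listed in 1 population are among these. Over the other 482, mTEC-IV had 140 higher and 142 lower, 29.05% and 29.46%, mTEC-III 136 and 96, 28.2% and 19.9%, mTEC-I 123 and 148, 25.5% and 30.7%, and mTEC-II 69 and 148, 14.3% and 30.7%. Median log2 changes over the 500 were -0.02 in mTEC-I, -0.10 in mTEC-II, 0.04 in mTEC-III and 0.02 in mTEC-IV. Leaving out mTEC-II replicate 1 or 2 gave a median of -0.097 or -0.10 in mTEC-II, with fewer domains called there. Leaving out mTEC-III replicate 1 or 2 gave 0.086 or -0.0046 in mTEC-III, also with fewer called there. Each of these fits leaves 1 library in the population, and fewer of all tested peaks were called in these contrasts too.

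The balance of these calls depended on the scaling. Of the calls in mTEC-II 30.7% were higher with the deposited scaling, 47.3% when totals within peaks were made equal, 40.8% with edgeR on recovered tags and 57.0% with cyclic loess. In mTEC-IV 52% were higher with the deposited scaling and 39.8% with equal totals within peaks. With cyclic loess the share went from 42.7% to 30.3% in mTEC-I and from 55.6% to 40.5% in mTEC-III. Without the 18 domains of 1 list, the F test called 397 of 482, 82.4%.

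**Figure D2:**
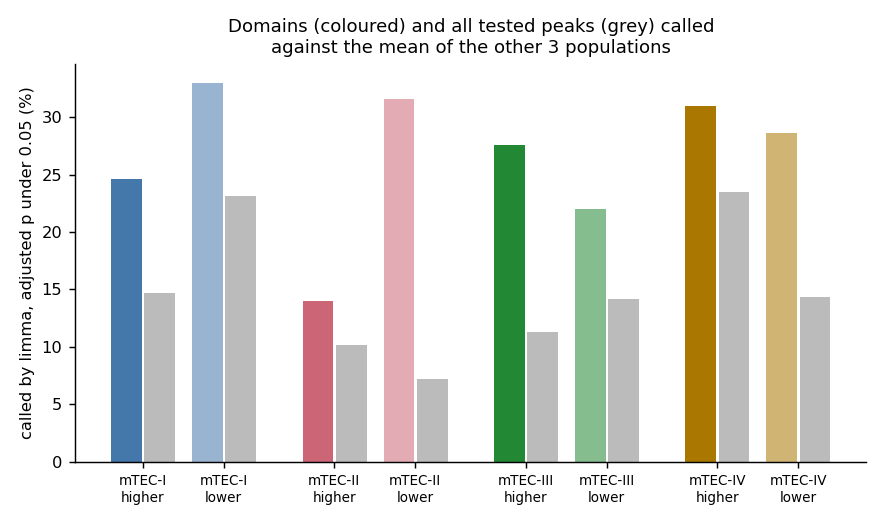
Percentage of the 500 domains (coloured bars, darker for higher and paler for lower) and of all 29469 tested peaks (grey bars) called by limma in each population against the mean of the other 3, with bars from 0. All 8 coloured bars stand above their grey neighbours, from 14.0% against 10.2% (mTEC-II higher) to 31.6% against 7.23% (mTEC-II lower).

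By the stricter count, in which both libraries of a population lay above all 6 others, 136 domains stood out in mTEC-IV (27.2%, all tested peaks 22.3%), 100 in mTEC-III (20%, 11.1%), 72 in mTEC-I (14.4%, 12.3%) and 51 in mTEC-II (10.2%, 10.2%). Both libraries lay below all 6 others for 102 domains in mTEC-IV (20.4%, 11.4%), 88 in mTEC-I (17.6%, 15.5%), 79 in mTEC-II (15.8%, 8.51%) and 52 in mTEC-III (10.4%, 11.1%). In mTEC-II above and in mTEC-III below, the domains were thus at or under the level of all peaks. The list that covered most of a domain belonged to the population with the highest level in 284 of the 500 domains, 56.8%. Among the 138 of over 2-fold range it did so in 120, made up of 117 of the 122 highest in mTEC-II, mTEC-III or mTEC-IV and 3 of the 16 highest in mTEC-I. Extent and level come from the same libraries and are not independent measures. A call of higher in the population whose list covers most of a domain is thus not independent of the choice by width.

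**Figure D3:**
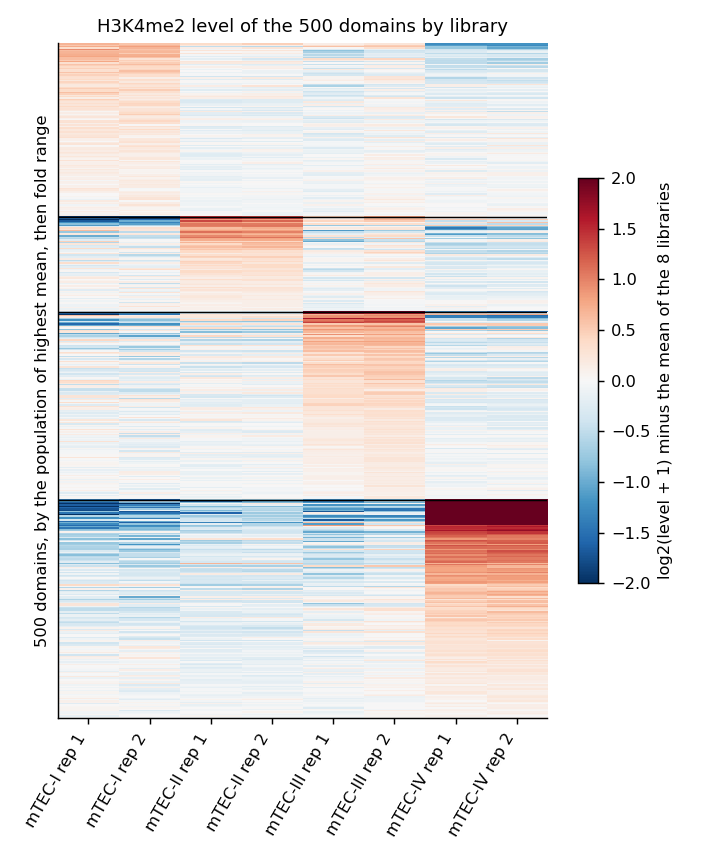
Level of the 500 domains (rows) in the 8 libraries (columns), as log2(level + 1) minus the mean of the 8 libraries; rows are ordered by the population of highest mean and then by fold range, lines separate the 4 blocks, and colours saturate at 2 on either side. The blocks hold 129 domains highest in mTEC-I, 70 in mTEC-II, 139 in mTEC-III and 162 in mTEC-IV, and the saturated rows are mostly in the mTEC-IV block.

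Some of the domains were nearly level across all 4 populations. The 4 with the largest F test p lay at Bcl9l, a coactivator of Wnt signalling, Baz2a, a subunit of a nucleolar remodelling complex, Pax9, a transcription factor that the thymus needs to form, and Ankrd33b. The Pax9 domain (chr12:57789955-57804972, mm9, 15017 bp, centre in intron 1) stood at 1300 and 1093 (mTEC-I), 1179 and 1092 (mTEC-II), 1089 and 1159 (mTEC-III) and 1150.2 and 1222 (mTEC-IV). The 8 values overlapped between all populations (limma F test adjusted p = 0.68), and with mTEC-I replicate 2 left out the adjusted p was 0.039. The Bcl9l domain, whose centre was 12546 bp upstream of the nearest start, had 458 and 452 (mTEC-I), 455 and 455 (mTEC-II), 434 and 478 (mTEC-III) and 473 and 482 (mTEC-IV) (adjusted p = 0.78). In all, 85 domains were not called by the F test and 72 were called in no contrast.

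The widest domain, at chr2:115877183-115902954 in mm9 coordinates, covered 25771 bp around the start of Meis2, a homeobox transcription factor. Its levels were 1908 and 1692 (mTEC-I), 1469 and 1514 (mTEC-II), 1137 and 1327 (mTEC-III) and 1255 and 1393 (mTEC-IV). Both mTEC-I libraries lay above the other 6, with a log2 change of 0.42 ± 0.067 SE (limma adjusted p = 5.9e-04).

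Of 8 more among the 10 widest, 5 had their highest level in mTEC-IV. By comparison, mTEC-IV was highest in 32.4% of the whole set of domains and in 32.47% of all peaks. The 5 include the Mctp1 domain, listed in mTEC-IV alone, for which the choice by width fixed the direction. Whether the widest domains differ in this from the others was not tested. The domain over Ehf, an Ets factor of epithelia (chr2:103122516-103144942, 22426 bp, centre in intron 1), had 796 and 755 (mTEC-I), 695 and 672 (mTEC-II), 896 and 1026 (mTEC-III) and 1662 and 1734 (mTEC-IV). Both mTEC-IV libraries were above all others (1.09 ± 0.059 SE, limma adjusted p = 2.2e-07), and the mTEC-IV list covered 87.4% of it against 18.8% to 51.2% in the other lists. The domain over Cap1, which encodes a cyclase-associated actin regulator, had 440.3 and 482 (mTEC-I), 592 and 608 (mTEC-II), 502 and 615 (mTEC-III) and 1507 and 1509 (mTEC-IV), with a log2 change of 1.49 ± 0.075 SE in mTEC-IV (adjusted p = 1.3e-07). Ivns1abp, an actin-binding kelch protein, and Abhd2, a serine hydrolase, showed the same order, with 1.38 and 1.44 in mTEC-IV (adjusted p = 1.1e-07 and 5.0e-08).

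The Mctp1 domain (chr13:76676582-76696438, 19856 bp) was a distal one, 164101 bp from the nearest start in intron 1 of the gene, which encodes a membrane protein with C2 domains. It was listed in mTEC-IV alone, and its levels were 82.8 and 91.1 (mTEC-I), 167 and 174 (mTEC-II), 135 and 159 (mTEC-III) and 1786 and 1754 (mTEC-IV). The mTEC-IV libraries were about an order of magnitude above the rest (log2 change 3.76, given as a description). Abhd17c, a depalmitoylating enzyme, was highest in mTEC-III and lowest in mTEC-IV (0.98 ± 0.061 SE and -0.92 ± 0.061 SE, limma adjusted p = 4.7e-06 and 8.4e-07). Tfap2a, an AP-2 transcription factor of the ectoderm and epidermis, was 0.45 higher on the log2 scale in mTEC-III (adjusted p = 1.6e-04), with 1003 there against 709.9 to 772 as means of the others. The intergenic Lincppara domain of 19083 bp ranged from 1139 in mTEC-III to 1358 in mTEC-I as means, a 1.19-fold range.

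Higher in mTEC-I by the smallest p were Arhgef17, Hoxa2, Trim29 and Il7. Hoxa2 encodes a Hox factor of the pharyngeal arches, and its domain (chr6:52107439-52121177, 13738 bp) had 1093 and 969 (mTEC-I), 514 and 583 (mTEC-II), 232 and 305 (mTEC-III) and 409.6 and 433 (mTEC-IV). The populations did not overlap, with mTEC-I highest (1.38 ± 0.099 SE, limma adjusted p = 3.2e-06) and mTEC-III lowest (-1.22 ± 0.099 SE, adjusted p = 1.9e-05). Il7 encodes a cytokine that supports lymphocyte development, and its domain of 15003 bp had 1398 and 1381 (mTEC-I), 818 and 799.7 (mTEC-II), 573 and 718 (mTEC-III) and 708 and 678 (mTEC-IV). Both mTEC-I libraries were above the rest (0.97 ± 0.073 SE, adjusted p = 4.6e-06). Arhgef17 rose by 1.03, and Trim29, a tripartite motif protein of stratified epithelia, by 1.05 with mTEC-III nearly as high, at 486 against 566 as means.

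Lower in mTEC-I by the smallest p were the domains at Inpp5d and Zfp362, with that at Mctp1 described above. Inpp5d, a lipid phosphatase of immune cell signalling, had 29.4 and 23.5 (mTEC-I), 135 and 153 (mTEC-II), 120.5 and 138 (mTEC-III) and 566 and 651 (mTEC-IV). The mTEC-I libraries were at a fraction of every other library (-3.05 ± 0.13 SE, limma adjusted p = 1.8e-07), while mTEC-IV stood above all others (2.92 ± 0.13 SE, adjusted p = 5.8e-08). In mTEC-I replicate 2 the level of 23.5 rests on few tags, since 3 tags there make 17.6.

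Higher in mTEC-II by the smallest p were Zfp362, Swap70, Snx29 and Cflar. Cflar encodes an inhibitor of caspase-8, and its wider domain (chr1:58775421-58787641, 12220 bp) had 219.8 and 241 (mTEC-I), 553 and 569.8 (mTEC-II), 435 and 488 (mTEC-III) and 203 and 187 (mTEC-IV). Both mTEC-II libraries were highest (1.03 ± 0.08 SE, limma adjusted p = 8.0e-05), with mTEC-III next. Zfp362, a zinc finger gene, had 33.3 and 29.4 (mTEC-I), 382 and 356 (mTEC-II), 197 and 251 (mTEC-III) and 151 and 136 (mTEC-IV) over a domain 18511 bp from its start (1.87 ± 0.12 SE, adjusted p = 4.3e-05). The Swap70 domain, 61931 bp from the start of a gene for a Rac-associated signalling protein, and the Snx29 domain rose by 1.37 and 1.40 (adjusted p = 4.3e-05 and 8.0e-05).

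Lower in mTEC-II were 2010111I01Rik, Skint3 and Perp, by -0.89, -1.02 and -0.80 on the log2 scale (limma adjusted p = 4.3e-05, 8.5e-05 and 9.4e-05). Perp encodes a component of desmosomes, and its domain had 607 and 552 (mTEC-I), 303 and 297 (mTEC-II), 659.9 and 706 (mTEC-III) and 381 and 350.1 (mTEC-IV). Its mTEC-II libraries were below all others and its mTEC-III libraries above all others.

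In mTEC-III the domains at Skint3 and Metrnl were higher, and those at Spink5 and Slc5a9 are described with no test. Spink5 encodes an inhibitor of skin proteases, and its domain, listed in mTEC-III alone, had 99.0 and 106 (mTEC-I), 107 and 101 (mTEC-II), 518 and 502 (mTEC-III) and 50.6 and 41.2 (mTEC-IV). Slc5a9, a sodium-dependent sugar transporter, was also listed in mTEC-III alone, with means of 421 there against 52.6 to 145. Metrnl encodes a secreted protein, and its domain (chr11:121561221-121574795, 13574 bp) had 344 and 358 (mTEC-I), 363 and 372 (mTEC-II), 744 and 745 (mTEC-III) and 335 and 336 (mTEC-IV). The mTEC-III libraries stood at about 2 times every other library (1.08 ± 0.062 SE, limma adjusted p = 4.7e-06), over the CpG-rich promoter shown with its sequence.

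Skint3 belongs to a family of immunoglobulin-like proteins of skin and thymic epithelium with near-identical copies, so its reads may be split among them. Its domain had 214 and 191 (mTEC-I), 163 and 159.6 (mTEC-II), 622 and 697 (mTEC-III) and 273 and 260.5 (mTEC-IV), with mTEC-III highest (1.68 ± 0.083 SE, limma adjusted p = 2.2e-06) over a promoter with no CpG in the window shown. Skint2 was likewise highest in mTEC-III and lowest in mTEC-IV (-1.86 ± 0.073 SE, adjusted p = 3.6e-08). Lower in mTEC-III by the smallest p were Dclk1, Hoxa2 and the domain at 4932413F04Rik. That at 4932413F04Rik was listed in mTEC-IV alone, so no test is given for it. Dclk1, a kinase known as a tuft cell marker, had 290.2 and 288 (mTEC-I), 187 and 209 (mTEC-II), 134 and 142 (mTEC-III) and 704 and 745 (mTEC-IV), and the populations did not overlap (-1.32 ± 0.08 SE in mTEC-III, adjusted p = 4.7e-06).

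In mTEC-IV the domains at Pik3cg, Mctp1, Trpm5 and 1810046K07Rik are described with no test, and all but Pik3cg were listed there alone. Pik3cg encodes the catalytic subunit of a phosphoinositide kinase, and its domain (chr12:32879018-32895634, 16616 bp) had 88.2 and 123 (mTEC-I), 141 and 149 (mTEC-II), 99.7 and 98.3 (mTEC-III) and 1228 and 1169 (mTEC-IV). Both mTEC-IV libraries were far above the other 6 (log2 change 3.38, given as a description). The only other listed peak in it, of mTEC-II, covered 6.07% of the width, so its choice by width rested on mTEC-IV. Trpm5 encodes a cation channel of taste and tuft cells, and its domain (chr7:150272551-150280735, 8184 bp) had 21.7 and 17.6 (mTEC-I), 37.3 and 34.4 (mTEC-II), 23.97 and 26.5 (mTEC-III) and 603 and 662 (mTEC-IV). The value in mTEC-I replicate 2 equals 3 tags, so the mTEC-I level is near the limit of what that library resolves.

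Lower in mTEC-IV were Skint2, Icam1 and Fcgbp. Icam1 encodes an adhesion molecule for leukocytes, and its domain (chr9:20818036-20827642, 9606 bp) had 525 and 485 (mTEC-I), 424 and 457 (mTEC-II), 359 and 389 (mTEC-III) and 139 and 142 (mTEC-IV). The mTEC-IV libraries lay well below the rest (-1.63 ± 0.076 SE, limma adjusted p = 9.4e-08). Fcgbp, an IgG-binding protein of mucus, had 631 and 684 (mTEC-I), 504 and 475 (mTEC-II), 544 and 608 (mTEC-III) and 202 and 179.8 (mTEC-IV) and fell likewise (-1.57 ± 0.076 SE, adjusted p = 1.2e-07).

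**Figure D4:**
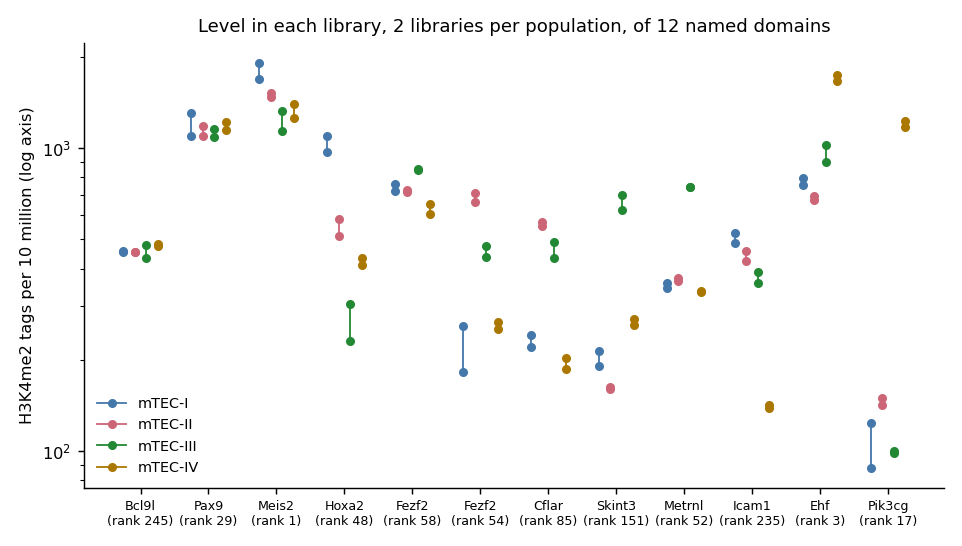
Level of 12 named domains in each library, in H3K4me2 tags per 10000000 on a log axis; points are libraries, coloured by population and joined within it. Bcl9l and Pax9 overlap between populations, Hoxa2 is highest in mTEC-I, the distal Fezf2 domain (rank 54) and Cflar in mTEC-II, Skint3 and Metrnl in mTEC-III, and Ehf and Pik3cg in mTEC-IV, where Icam1 is lowest.

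There were 17 genes nearest to 2 or more domains. Smad1, which encodes a mediator of BMP signalling, had 3 with gaps of 1932 and 640 bp between them, 32528 bp of width in all. The domain over its start (9384 bp) had means from 404 in mTEC-IV to 537 in mTEC-III. The middle one, centred 14998 bp into the gene, had 407 and 467 (mTEC-I), 588 and 561 (mTEC-II), 505 and 541 (mTEC-III) and 318 and 299 (mTEC-IV) and was lowest in mTEC-IV (-0.72 ± 0.073 SE, limma adjusted p = 2.0e-05). The farthest, 28503 bp in, had 347 and 317 (mTEC-I), 492 and 468 (mTEC-II), 483 and 524 (mTEC-III) and 593 and 640.4 (mTEC-IV) and was highest in mTEC-IV (0.51 ± 0.069 SE, adjusted p = 1.5e-04). So mTEC-IV was lowest at the middle domain and highest at the farthest, while mTEC-I was low at both, and the difference between the domains was not tested.

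Fezf2, a transcription factor for the expression of tissue antigens in mTEC, was nearest to 2 domains. The one over its start (chr14:13170448-13183655, 13207 bp) had 759 and 719.7 (mTEC-I), 726 and 715 (mTEC-II), 849.7 and 847 (mTEC-III) and 652 and 608 (mTEC-IV). It was slightly higher in mTEC-III and lower in mTEC-IV (0.29 and -0.29, limma adjusted p = 0.0028 and 0.0014), and its mTEC-II change of -0.03 was not called (adjusted p = 0.77). The other (chr14:13206500-13220069, 13569 bp) was centred 34905 bp upstream, in intron 27 of NM_012061, and had 182 and 258 (mTEC-I), 708 and 663 (mTEC-II), 438 and 475 (mTEC-III) and 267 and 252 (mTEC-IV). Both mTEC-II libraries were above all others (1.21 ± 0.11 SE, adjusted p = 1.1e-04). The difference between the domains was not tested.

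Meis2 had a second domain 208143 bp from its start, with 703 in mTEC-I against 303 to 546 as means (0.83 ± 0.09 SE, limma adjusted p = 4.5e-05). The second Ivns1abp domain, 95353 bp upstream, was listed in mTEC-IV alone, with 416 there against 36.9 to 85.3. Mbnl1, a regulator of splicing, had a domain over its start and one in intron 2, both highest in mTEC-IV (0.65 and 1.67, adjusted p = 1.3e-05 and 2.7e-07). The second Lincppara domain lay 5098 bp from the first and was not called by the F test (adjusted p = 0.077), but was without mTEC-I replicate 1 (1.4e-04) or 2 (0.0069).

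Gene lists are described by counts, and Pax9, Pax1, Pou2f3 and Sox9 each stand in more than 1 list. Transcription factors of epithelium and thymic epithelium were often among the nearest genes. Of 34 such genes with any peak, 17 had a domain, 50%, against 3.06% of all 15739 genes. Of their 19 domains 18 were listed in 2 or more populations, and the F test called 16 of these, 88.9%, against 82.4% of the 482 such domains and 58.2% of all tested peaks. Of the 18, 11 were lower in mTEC-I (61.1%, against 30.7% of the 482 and 23.1% of all peaks), 9 higher in mTEC-III (50%, against 28.2% and 11.3%) and 7 higher in mTEC-IV (38.9%, against 29.05% and 23.5%). In order of width they were Ehf, Tfap2a, Klf4, Pax9, Eya1, Foxn1, Fezf2, Gata3, Klf5, Spib, Ovol1, Tfap2b, Foxa1, Pax1, Sox9, Grhl3 and Cebpa. Leaving out 1 library at a time gave 8 to 10 lower in mTEC-I, 5 to 10 higher in mTEC-III and 6 to 8 higher in mTEC-IV, and the 5 came without mTEC-III replicate 2.

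Foxn1, the factor that thymic epithelium needs to develop, had a domain of 13638 bp (chr11:78187416-78201054) with 460.4 and 455 (mTEC-I), 609 and 606 (mTEC-II), 413 and 469 (mTEC-III) and 175 and 185 (mTEC-IV). It was lowest in mTEC-IV (-1.46 ± 0.072 SE, limma adjusted p = 1.3e-07) and highest in mTEC-II (0.87 ± 0.072 SE, adjusted p = 8.5e-05). Klf4, a factor of epithelial differentiation, and Spib, an Ets factor, were highest in mTEC-IV (0.80 and 0.90, adjusted p = 5.4e-06 and 2.7e-05). Grhl3, a factor of the skin barrier, was highest in mTEC-III, with 523 ± 14.7 (SD, n = 2) against 300.4 to 362 (0.68, adjusted p = 2.0e-04). Tfap2b, an AP-2 factor, was lowest in mTEC-I, with 131 ± 21.8 (SD, n = 2) against 429.5 to 502 (-1.85, adjusted p = 2.7e-07).

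Of 66 homeobox genes outside the Hox clusters with a peak, 10 had a domain, 15.2%, against 3.06% of all 15739 genes. Of 32 Hox genes 1 had a domain, Hoxa2, or 3.1%, near the share of all genes. The 12 homeobox domains were called higher in mTEC-I in 7 cases and lower in mTEC-III in 8, 58.3% and 66.7%, where the 482 gave 25.5% and 19.9% and all tested peaks 14.7% and 14.2%. Without mTEC-III replicate 1 the count in mTEC-III was 2, and without any other library it was 7 to 9. Isl1, a LIM homeobox factor, fell stepwise over the populations as means, from 972 in mTEC-I through 739 and 529 to 440.5 in mTEC-IV (0.80 in mTEC-I, limma adjusted p = 1.4e-05). Pax1, a paired box factor of the pharyngeal pouches, was highest in mTEC-I (0.55, adjusted p = 2.8e-04) and lowest in mTEC-III (-0.53, adjusted p = 7.3e-04).

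Most domains of tuft cell genes that were listed in 2 or more populations were higher in mTEC-IV. Of 29 genes of the list with a peak, 12 had a domain, 41.4%. Of their 13 domains 4, at Trpm5, Sh2d7, Plcb2 and Runx1, were listed in mTEC-IV alone and are left out of the counts. The Pik3cg domain is kept in the counts, where it is 1 of those called higher in mTEC-IV. Its choice by width also rested on mTEC-IV, which fixed its direction, so its call adds no support. The F test called all 9 others, against 82.4% of the 482 domains and 58.2% of all tested peaks. Of the 9, 7 were higher in mTEC-IV, 77.8%, against 29.05% of the 482 and 23.5% of all peaks, with a median log2 change of 1.59 over the 9, beside -0.0035 over the 482. Leaving out 1 library gave 7 to 8 of 9. Called higher elsewhere were 2 of the 9 in mTEC-I, 22.2%, and 1 in mTEC-II, 11.1%, against 25.5% and 14.3% of the 482. Called lower were 6 in mTEC-I, 7 in mTEC-II and 6 in mTEC-III, each measured against a mean with mTEC-IV in it. Without mTEC-II replicate 1 or 2 the count in mTEC-II was 3 or 4, and without mTEC-III replicate 1 the count in mTEC-III was 3.

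Pou2f3, the transcription factor that tuft cells need, had a domain (chr9:43001073-43014823, 13750 bp) with 166 and 144 (mTEC-I), 208 and 252 (mTEC-II), 358 and 356 (mTEC-III) and 972 and 1032 (mTEC-IV). The order ran from mTEC-I to mTEC-IV with no overlap between populations (2.10 ± 0.09 SE in mTEC-IV, limma adjusted p = 5.4e-08). Ptpn6, a phosphatase, and Vav1, an exchange factor, both also known from leukocytes, rose by 1.50 and 1.59 in mTEC-IV (adjusted p = 3.6e-08 and 6.7e-07). Sh2d7 and Plcb2, the latter a phospholipase of taste signalling, were listed in mTEC-IV alone, with 777 and 626 there against at most 68.6 and 56.6 in another population as means. Runx1, a runt factor, had a start-site domain with means of 482 to 704, and, across a gap of 121852 bp, a domain listed in mTEC-IV alone, with 633 there against 35.4 to 99.3.

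Because several of these genes are active in blood cells, markers of other cells are given beside them. Of 18 markers of haematopoietic and antigen-presenting cells, 7 were nearest to no peak, among them Adgre1, Fcer1g, Lyz2, Spi1 and Tyrobp. The summed level of the other 11 was 864 to 914 in mTEC-I, 1269 to 1317 in mTEC-II, 1105 to 1106 in mTEC-III and 1339 to 1437 in mTEC-IV. Of 20 markers of T cells and thymocytes, 11 had no peak, among them Cd3e, Cd4, Cd8a and Rag1, and the summed level was 2488 to 2588 in mTEC-I, 2854 to 2875 in mTEC-II, 2472 to 2582 in mTEC-III and 2688 to 2732 in mTEC-IV. Endothelium markers, 14 of 15 with a peak and Tie1 without, summed to 2139 to 2174, 2273 to 2277, 1863 to 2027 and 2995 to 3043, and fibroblast markers, 11 of 15 with a peak, to 1616 to 1686, 1191 to 1214, 826 to 949 and 1356 to 1440, from mTEC-I through mTEC-IV. The part of other cells in the mTEC-IV differences was not tested. Of these 4 lists, 1 gene was nearest to a domain: Laptm5, a lysosomal membrane protein of blood cells, with 118 and 109 (mTEC-I), 492 and 452 (mTEC-II), 281 and 285 (mTEC-III) and 331 and 404 (mTEC-IV), lowest in mTEC-I (-1.68 ± 0.092 SE, limma adjusted p = 6.1e-07) and highest in mTEC-II.

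Of 40 genes of keratins and cell junctions with a peak, 7 had a domain, 17.5%. All 8 of their domains were called by the F test, against 82.4% of the 482. Of the 8, 3 were higher and 4 lower in mTEC-III, 37.5% and 50%. The 482 gave 28.2% and 19.9% there, and all tested peaks 11.3% and 14.2%. In mTEC-IV 3 were higher and 1 lower, 37.5% and 12.5%, against 29.05% and 29.46% of the 482 and 23.5% and 14.3% of all. In mTEC-I 2 were higher and 4 lower, and in mTEC-II 5 were lower. The 482 gave 25.5% and 30.7% in mTEC-I and 30.7% lower in mTEC-II, and all peaks 14.7%, 23.1% and 7.23%. Fewer of the 8 were called lower in mTEC-II when either mTEC-II library was left out. Krt8 and Krt18, the keratins of simple epithelia, were highest in mTEC-IV, with 355 and 347 (mTEC-I), 356 and 385 (mTEC-II), 370.3 and 375 (mTEC-III) and 655 and 739 (mTEC-IV) at the wider Krt8 domain (0.93 ± 0.071 SE, limma adjusted p = 2.2e-06) and 1.05 at Krt18 (adjusted p = 2.4e-06). Jup, a plakoglobin of desmosomes, and Cldn1, a claudin of tight junctions, were highest in mTEC-III (0.81 and 1.22, adjusted p = 8.0e-05 and 8.5e-06). For Cldn1 the mean was 455 in mTEC-III against 147 to 288 elsewhere.

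Of 27 antigen presentation genes with a peak, 7 had a domain, 25.9%. All 7 were called by the F test, against 82.4% of the 482 domains and 58.2% of all tested peaks. In mTEC-I 4 were higher and 0 lower, 57.1% higher, against 25.5% of the 482 and 14.7% of all. In mTEC-II 3 were higher and 3 lower, 42.9% each. The 482 gave 14.3% and 30.7% there, and all tested peaks 10.2% and 7.23%. Both mTEC-II counts fell when either mTEC-II library was left out. Lower in mTEC-IV were 5, or 71.4%, against 29.46% of the 482 and 14.3% of all peaks, a count that held at 5 in every fit that left out a library. Ciita, the master regulator of MHC class II, had 300.2 and 297 (mTEC-I), 457 and 452 (mTEC-II), 224 and 294 (mTEC-III) and 139 and 148 (mTEC-IV) (chr16:10487769-10498911). It was highest in mTEC-II (1.03 ± 0.1 SE, limma adjusted p = 1.4e-04) and lowest in mTEC-IV (-1.18 ± 0.1 SE, adjusted p = 5.1e-06). H2-Eb1, H2-Ab1 and Cd74, which encode MHC class II chains and the invariant chain, were lower in mTEC-IV by -0.79, -0.61 and -1.19 (adjusted p = 4.4e-06, 2.9e-05 and 1.4e-05). Cd274, which encodes the checkpoint ligand PD-L1, went the other way, with 1144 in mTEC-IV against 824 to 1065 as means (0.32, adjusted p = 3.0e-04).

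**Figure D5:**
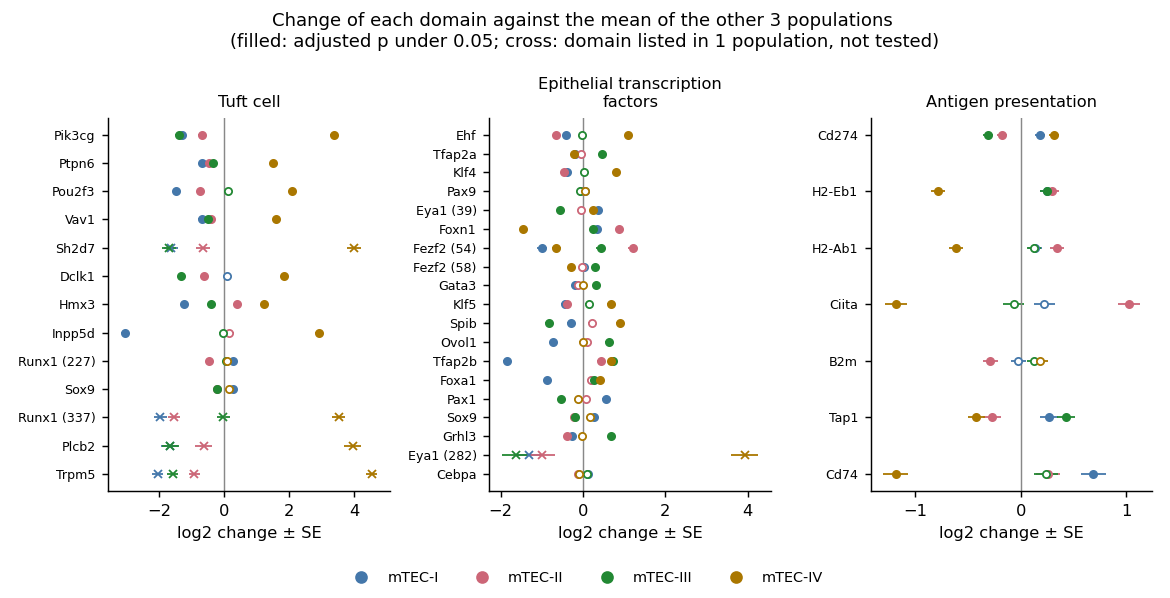
Log2 change ± SE (horizontal axis) of each domain of 3 gene lists against the mean of the other 3 populations. Each domain has 1 row, in order of width, with the width rank in brackets where a gene has 2 domains. Filled points passed limma's adjusted p of 0.05. Crosses mark domains listed in 1 population, which were in the fit but are given with no test. Pik3cg is drawn with points, though its choice by width also rested on mTEC-IV. In the tuft cell list the mTEC-IV points lie farthest right in most rows, and in the antigen presentation list 5 of 7 mTEC-IV points lie to the left.

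The NF-kappaB and TNF family list had 8 of 35 genes with a domain, and 9 domains, of which 5 were higher in mTEC-I and 5 lower in mTEC-IV, 55.6% in each case, against 25.5% and 29.46% of the 482 domains and 14.7% and 14.3% of all tested peaks. Birc2, an inhibitor of apoptosis in TNF receptor signalling, had 990.5 and 1119 (mTEC-I), 906 and 892 (mTEC-II), 796 and 827 (mTEC-III) and 549.8 and 492 (mTEC-IV), highest in mTEC-I and lowest in mTEC-IV (0.54 and -0.82, limma adjusted p = 7.9e-05 and 2.8e-06). The death receptor gene Fas was highest in mTEC-II (0.61, adjusted p = 3.2e-04). The count higher in mTEC-I was 3 without either mTEC-II library, and the count lower in mTEC-IV was 3 without either mTEC-IV library.

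Signalling genes of the Wnt, Notch, BMP, TGF-beta and FGF pathways had a domain in 10 of 62 cases, 16.1%, and 6 of the 10 domains were called by the F test, under the 82.4% of the 482 and near the 58.2% of all tested peaks. Fgfr2 and Wnt5a, a growth factor receptor and a Wnt ligand, were highest in mTEC-I (1.01 and 0.79, limma adjusted p = 2.6e-05 and 1.2e-05). Notch2, a receptor, was highest in mTEC-III, with 543 and 564 (mTEC-I), 403 and 424 (mTEC-II), 871 and 893 (mTEC-III) and 455 and 461 (mTEC-IV) (0.90 ± 0.058 SE, adjusted p = 4.7e-06). Jag1, a Notch ligand, had 714 in mTEC-I and 718 in mTEC-III against 525 and 543 in mTEC-II and mTEC-IV.

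Growth control and immediate early genes had a domain in 14 of 43 cases, 32.6%. The F test called 7 of their 14 domains, 50%, under the 82.4% of the 482 domains and the 58.2% of all tested peaks. More of the 14 were called without mTEC-I replicate 1, as were more of all tested peaks. Myc, Junb and Bcl6, all transcription factors, were not called (limma F test adjusted p = 0.22, 0.51 and 0.21), though Myc was with cyclic loess (0.0076) and Junb without mTEC-I replicate 1 (0.0078). Myc had means from 546 to 614. Fosl2, an AP-1 factor, was highest in mTEC-III (0.48, adjusted p = 4.2e-04). Of 23 interferon-induced genes 3 had a domain, Irf1, Socs1 and Usp18, and of 24 ribosomal protein genes none had one.

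A miRNA gene was nearest to 19 domains, and the start of the miRNA lay inside 11 of them. Mir21a, a miRNA widely induced in growth and stress, had 539 and 558 (mTEC-I), 549.9 and 514 (mTEC-II), 572 and 606 (mTEC-III) and 814 and 844 (mTEC-IV) over 11820 bp, with mTEC-IV highest (0.58 ± 0.059 SE, limma adjusted p = 2.0e-05). Mir203, known from differentiating epidermis, was highest in mTEC-III, with 269 and 264 (mTEC-I), 299 and 265 (mTEC-II), 377 and 456 (mTEC-III) and 239.7 and 241 (mTEC-IV) (0.66 ± 0.09 SE, adjusted p = 4.2e-04). Mir200b, of the family that holds the epithelial state, was highest in mTEC-IV (0.44, adjusted p = 3.6e-04). The mark says nothing of which transcript of the locus is made. The domain in Tmem245, listed in mTEC-IV alone, had 30.9 and 64.6 (mTEC-I), 69.1 and 70.0 (mTEC-II), 84.5 and 91.8 (mTEC-III) and 1012 and 941 (mTEC-IV).

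In 10 domains the centre lay over 100 kb from the nearest start, 2.0% against 8.37% of all peaks. They include 3 that were listed in mTEC-IV alone, at Mctp1, Eya1 and Ppp3ca. The Eya1 domain, 253106 bp from the start of this developmental transcription cofactor, had 16.2 and 52.9 (mTEC-I), 31.1 and 38.5 (mTEC-II), 29.6 and 20.6 (mTEC-III) and 497 and 429 (mTEC-IV), where the mTEC-I libraries differed by a factor of about 3. The Ppp3ca domain, 314533 bp from the start of a calcineurin subunit, had 18.6 and 29.4 (mTEC-I), 12.3 and 20.4 (mTEC-II), 15.8 and 27.1 (mTEC-III) and 412 and 427 (mTEC-IV). Both mTEC-IV libraries were far above the other 6, which ran from 12.3 to 29.4.

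Level per kb showed the other side of the set. The densest domains lay at Bahcc1 (93.0 per kb), Fgf9 (88.4), Bcl11a (86.0), Tgif1 (83.7) and Pcdh7 (82.4), all over a start site and listed in all 4 populations. The Bahcc1 domain (chr11:120090521-120099863, 9342 bp) had 895 and 823 (mTEC-I), 818 and 843 (mTEC-II), 816 and 861 (mTEC-III) and 959 and 937 (mTEC-IV), and it was not called by the F test (limma adjusted p = 0.076), but was without mTEC-I replicate 1 (0.012) or 2 (0.017). The least dense were the Eya1 (15.2 per kb) and Ppp3ca (15.3) domains and the one at 1810006J02Rik (16.6), all of them intergenic. The 1810006J02Rik domain had 54.2 and 41.1 (mTEC-I), 425 and 408 (mTEC-II), 166 and 238 (mTEC-III) and 168 and 141 (mTEC-IV), with mTEC-II highest (1.87 ± 0.15 SE, adjusted p = 8.5e-05) and mTEC-I lowest (-2.28 ± 0.15 SE, adjusted p = 1.9e-06).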

How the data were processed

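The build was mm9 and the tools included Picard 1.108 and bcl2fastq 2.15.0.4, per the submitters' processing notes. The aligner and peak settings were not given in the sources used here. Per the file headers, HOMER annotated the merged table, whose signal the authors deposited as tags per 10000000 tags of each library. The deposited lists, 1 per population, are in HOMER format, with a fold ratio over control and a p-value per peak given by the authors, used only to filter within a list. Domain coordinates are those of the table. The members and gene lists were chosen with earlier results of these data known.

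The deposited signal was tested with limma 3.58.1 (R 4.3.3, trended variance) on log2(value + 1), a scale that understates the change of low peaks, for peaks with at least 10 in at least 2 libraries: an F test over the 4 populations and each population against the mean of the other 3, with 4 residual and 7.75 prior degrees of freedom. Benjamini-Hochberg adjusted p under 0.05 over 29469 peaks was called. Both mitochondrial peaks were left out. All values, 100%, lay within 0.1 of a step of 0.5 tags, so counts were recovered (2 per tag) for edgeR 4.0.16, whose F test called 20264 peaks, and DESeq2 1.42.0. Fits were tested on simulated data. Cover was the union of listed bases, with overlaps of at least 1 bp (Python 3.11.15). Other alternatives were another pseudocount, no filter, other scalings, a replicate block, each library left out, the 250 and 1000 widest, and, chosen after seeing the data, cyclic loess.

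Named domains were the 10 widest, per population the 4 of smallest p called higher and the 3 called lower with both libraries beyond the other 6, the 4 of largest F test p, the 6 genes with most domains, 3 on each side of the width limit, the 5 densest and 3 least dense, and list genes. Myc, Spib, Grhl3, Tfap2b and the other list genes given with values beyond the widest of their list, the microRNA domains and the distal ones were chosen after their values were seen. The remaining domain of the 10 widest is not reported here. Totals were 1702103.5 to 15412132.5 tags, so 3 tags, the limit that a count of 0 allows, make 1.95 to 17.6. Such limits and intervals cover counting error only: with no molecular identifiers, reads may repeat a molecule.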

Additional observations from a re-analysis of the deposited data

How the results depend on the processing

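Of 555 results on named domains, each run under 16 alternatives, none reversed. Contrasts were entered only where called in the main fit, and F tests have no sign, so few reversals were possible. Of the 8880 pairs of result and alternative, 451 lost a call, 376 of them by leaving out a library, and 54 gained one. Of the shares over the 500 domains, those of the F test, mTEC-I and mTEC-IV stayed within 1.5 times under every alternative. Leaving out 1 library gave 71.8% to 92.4% called by the F test, 18.4% to 26.4% higher and 29% to 34.6% lower in mTEC-I, 6.2% to 20.4% higher and 8.4% to 40.2% lower in mTEC-II, 16.0% to 34.2% higher and 11.6% to 27.2% lower in mTEC-III, and 24.4% to 34.0% higher and 20.4% to 33.2% lower in mTEC-IV. The share higher in mTEC-II was 22.8% with cyclic loess, 23.8% with edgeR and 21.2% with DESeq2, against 14.0%. All tested peaks gave 9.84%, 20.7% and 16.2% there, against 10.2%. The share lower in mTEC-II was 17.2% with cyclic loess, against 31.6%. All tested peaks gave 5.59% there, against 7.23%. The cause was not tested. Cyclic loess also moved the median of all peaks in mTEC-III by 0.10 (log2). The annotation, which names the centre alone, put 11.2% of domains at a start site, against 87.4%. Listed peaks at or above the median fold covered 51.4% (mTEC-II) and 35.3% (mTEC-III) of a domain at the median, against 85.5% and 77.1%. With the replicate number as a block the F test called 83.4%, and no share moved by over 1.5 times. Deviations of same-numbered libraries from their population means had correlations of -0.0125 to 0.0159 over the tested peaks. Counting error lowers such correlations, so they cannot show whether these libraries share mice or a preparation. With 2 libraries per population and 1 shallow library in mTEC-I, small differences at low levels were not detectable.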
